A study of Mus musculus with 16 samples.

Results

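Fat cells store triglyceride in lipid droplets and release it as fatty acids by lipolysis. The 10 genes followed here belong to this system: the lipases Pnpla2, Lipe and Mgll, their regulators Abhd5, G0s2 and Pde3b, and the droplet proteins Plin1, Plin2, Plin4 and Cidec. They were picked by name for their known roles, with earlier results of these data known. All 10 were found among the 24454 genes of the table, and all 10 were among the 16682 genes kept by the filter on low counts.

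The RNA came from the gonadal fat pad of lean, chow-fed males of the inbred strain C57BL/6J, aged 16 weeks. The 4 groups crossed 2 surgeries with 2 infusions. Sham_Veh mice had sham surgery and vehicle, Sham_SHU mice sham surgery and SHU9119, VX_Veh mice subdiaphragmatic vagotomy (sDVX) and vehicle, and VX_SHU mice sDVX and SHU9119. In sDVX the vagus nerve is cut below the diaphragm. SHU9119, a peptide that blocks melanocortin receptors, was given into the brain ventricles at 1 nmol per day for 2 weeks, starting 4 weeks after surgery, and all mice ate the same calories in that time. Each group held 4 libraries of polyadenylated RNA, named by group and replicate number. Whether each library stands for its own mouse is not stated in the labels. The p-values therefore reflect only how far libraries differ, which may be technical. Whole depots were used, so fewer fat cells and less of an RNA per fat cell cannot be told apart.

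Triglyceride is broken down in steps. Pnpla2 (adipose triglyceride lipase) removes the first fatty acid, Lipe (hormone-sensitive lipase) the second and Mgll (monoglyceride lipase) the last, leaving glycerol. Abhd5 activates Pnpla2, and G0s2 binds and inhibits it. Plin1 coats the droplet and holds Abhd5 away until protein kinase A phosphorylates both Plin1 and Lipe, and Pde3b works against this by degrading cyclic AMP when insulin is present. Plin2 coats droplets in most cell types, Plin4 binds droplets in fat cells, and Cidec lets small droplets pass their lipid into large ones. Sympathetic nerves and insulin set the rate of lipolysis in fat tissue, and brain melanocortin receptors are known to act on sympathetic outflow.

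Library totals were 20425295 to 30889052 counts, and the 10 genes together took 1.038% to 1.533% of the counts in 15 libraries and 0.6475% in VX_Veh1. Transcripts typical of epididymis were present in some libraries. The summed level of 8 epididymis markers reached 9576 CPM (counts scaled to the size of the library) in VX_Veh4 and 10240 in VX_SHU4, against a median of 40.19 over the 16. Crisp1 and Adam7 made up nearly all of it, while Lcn5 averaged at most 0.0413 CPM in any group. The summed level of 8 ciliated epithelium markers was 10.08 to 302.4 CPM in Sham_Veh, 11.29 to 125.2 in Sham_SHU, 15.19 to 814.2 in VX_Veh, with VX_Veh1 highest, and 8.112 to 146.7 in VX_SHU. The 8 adipocyte markers, none of them among the 10 genes, summed to 12200 CPM in VX_Veh1 and to 19840 to 37090 in the other libraries, and none was at 0 in any library. Fabp4 and Cfd were the largest terms of that sum. Cfd averaged 10390 CPM in Sham_Veh and 5069 in Sham_SHU, and Lep 481.9 and 1022, so the sum itself holds genes that differed between groups.

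Per kilobase of exon the 10 genes spanned a wide range in a stable order. Cidec was highest in every library, with 1291 ± 339 CPM per kb (SD, n = 16), followed by Pnpla2 with 566.9 ± 153 and Plin4 with 538.8 ± 115.5. The lipases Mgll (300.2 ± 92.4) and Lipe (226.3 ± 55.3) stood below Plin1 (324.9 ± 75.8). G0s2, the inhibitor, was at 175.4 ± 44.98 CPM per kb, Plin2 at 87.26 ± 38.0, Pde3b at 51.18 ± 7.51 and Abhd5, the activator of Pnpla2, at 32.72 ± 7.43. Neighbours in this order changed places between libraries in the pairs Pnpla2 and Plin4, Plin1 and Mgll, Lipe and G0s2, and Plin2 and Pde3b. Cidec was ranked 1 and Abhd5 10 in all 16 libraries. Lengths are the union of annotated exons, from 871 bases for G0s2 to 9114 for Pde3b.

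**Figure D1:**
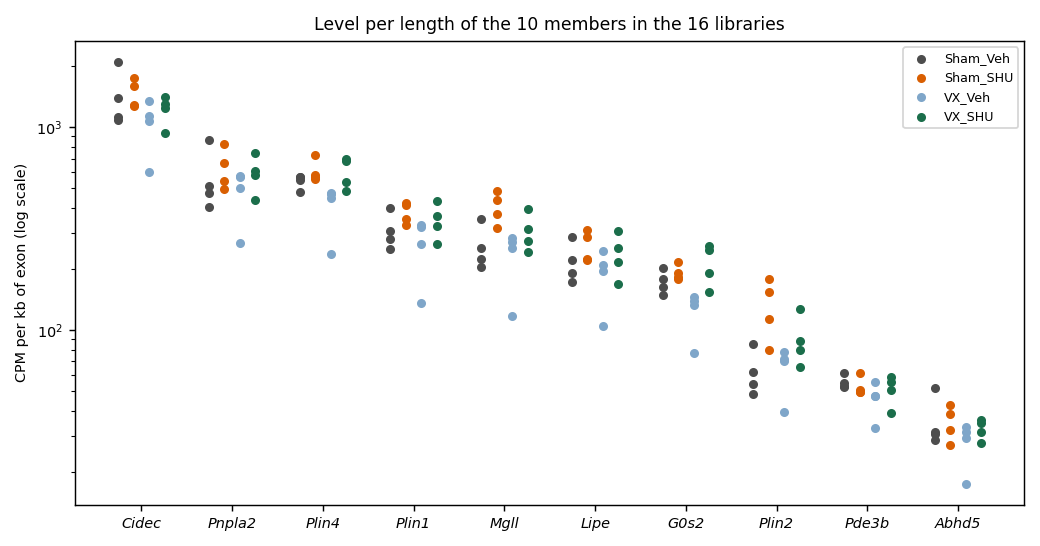
Level of each of the 10 genes in CPM per kb of exon (log scale), 1 dot per library, coloured by group and ordered by the mean over 16 libraries. Within each library Cidec lies above and Abhd5 below the other genes, and the lowest dot of each gene is a VX_Veh library.

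On the mm10 build Pnpla2 lies on chromosome 7 from 141455188 to 141460743, Lipe on chromosome 7 from 25379527 to 25398486, Mgll on chromosome 6 from 88724412 to 88828360, Abhd5 on chromosome 9 from 122351616 to 122381524 and G0s2 on chromosome 1 from 193272160 to 193273188. Pde3b lies on chromosome 7 from 114415222 to 114537938. The droplet protein genes are Plin1 on chromosome 7 from 79721164 to 79732904, Plin2 on chromosome 4 from 86626910 to 86670217, Plin4 on chromosome 17 from 56100587 to 56109948 and Cidec on chromosome 6 from 113424634 to 113435760. All are protein-coding. Antisense genes share 15.596% of the exon bases of Lipe and 15.95% of those of Abhd5, and 3.289% of those of Mgll, and whether the counting used strand is not given in the sources used here, so reads of these pairs cannot be told apart.

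Stretches upstream of 4 genes are shown. Plin2 and G0s2 had the largest differences with SHU9119 in sham and sDVX mice, Plin4 was separate between the same groups as G0s2, and Plin1 is the droplet coat that Plin2 is set against. They come from the windows before the RefSeq start sites (GRCm38.p6), clipped to bases outside all annotated exons, so each ends some way short of the start site used. Capitals mark AGGTCA on either strand (written TGACCT on the strand shown), the element read by nuclear receptors such as the PPAR family, whose known targets in fat cells include perilipin genes.
Plin2 (chr4:86670218-86670309, minus strand): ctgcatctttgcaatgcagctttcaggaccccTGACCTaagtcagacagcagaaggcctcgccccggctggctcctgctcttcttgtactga
Plin1 (chr7:79732905-79733026, minus strand): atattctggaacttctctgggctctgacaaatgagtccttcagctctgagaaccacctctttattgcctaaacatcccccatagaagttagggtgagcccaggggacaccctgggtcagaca
Plin4 (chr17:56109949-56110032, minus strand): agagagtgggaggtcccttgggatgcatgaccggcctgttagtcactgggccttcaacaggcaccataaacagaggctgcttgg
G0s2 (chr1:193273218-193273337, minus strand): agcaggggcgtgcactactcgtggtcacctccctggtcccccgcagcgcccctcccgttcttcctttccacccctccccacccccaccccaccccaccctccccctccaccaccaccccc

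Of the 9 genes with an entry, AGGTCA on either strand occurred within 250 bases before a start site in Plin2 and Abhd5. That was 2 of the 12 windows of the 9 genes, and 14% of 32851 such windows of all genes held it. Of 2 copies of AGGTCA in the same direction with any 1 base between them, there were matches in 0 of 12 windows of the 9 genes and in 0.0335% of all windows. These are matches of letters, and no binding was measured.

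SHU9119 in mice with an intact vagus was the first comparison, and Plin2 stood furthest apart in it. Plin2 was at 169.7, 190.6, 300.1 and 218.8 CPM in Sham_Veh1 to 4, and at 538.2, 625.2, 281.5 and 399.9 CPM in Sham_SHU1 to 4. Sham_SHU1, 2 and 4 lay above all Sham_Veh libraries, and Sham_SHU3 lay below Sham_Veh3. The group means were 219.8 ± 57.2 and 461.2 ± 152 CPM (SD, n = 4). Their log2 difference of 1.07 ± 0.289 (SE) did not pass (Benjamini-Hochberg adjusted p = 0.0935 over all genes, edgeR quasi-likelihood). Without Sham_SHU3 it passed (edgeR adjusted p = 0.0292, log2 difference 1.24), where 5.83% of all genes did. It also passed without VX_Veh1 (edgeR adjusted p = 0.0452, log2 difference 1.09), where 3.11% of all genes did. Over the 25 other ways of fitting, by edgeR, DESeq2 or limma-voom, Plin2 passed in 5. The adjusted p of these fits ran from 0.00292 to 0.28, always with Plin2 higher under SHU9119.

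Mgll, the last lipase of the chain, stood next. It was at 1038, 1131, 1784 and 1294 CPM in Sham_Veh1 to 4 and at 2460, 2210, 1618 and 1904 CPM in Sham_SHU1 to 4. Sham_SHU3 again was the Sham_SHU library that lay inside the Sham_Veh range, whose top was Sham_Veh3. The log2 difference was 0.64 ± 0.263 (SE; edgeR adjusted p = 0.208).

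The first lipases of the chain differed little from the spread. Pnpla2 averaged 1707 ± 626 CPM in Sham_Veh and 1912 ± 438 in Sham_SHU (log2 difference 0.16 ± 0.279), and Lipe 1287 ± 300 and 1538 ± 263 (0.26 ± 0.253). Abhd5 (−0.02 ± 0.222), G0s2 (0.16 ± 0.194) and Pde3b (−0.07 ± 0.154) were nearly level between these groups. Among the droplet proteins Plin1 (0.29 ± 0.242), Plin4 (0.17 ± 0.197) and Cidec (0.05 ± 0.252) had smaller differences than Plin2.

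In this comparison 0 of the 10 genes passed, where 0.114% of all tested genes did. At an unadjusted p under 0.05, 2 were higher (Plin2 and Mgll; 11% of all genes) and 0 lower (8.67%), and 8 of 10 had a positive difference, against 43.2% of all genes. No groups were separate for any of the 10, where 5.6% of all genes were separate and higher and 4.82% separate and lower. The median log2 difference was 0.17, beside −0.06 for all genes. DESeq2 called Plin2 (adjusted p = 0.00716) among 7.22% of genes, and limma-voom with sample weights called Plin2 and Mgll (adjusted p = 0.00292 and 0.00616) among 23.2%. With the adipocyte marker sum as a covariate, added after the data were seen, edgeR called Plin2, Mgll, Plin1 and Lipe (adjusted p = 0.00589, 0.00462, 0.0284 and 0.033), higher with SHU9119, among 11% of all genes. The 6 libraries whose epididymis or testis sum reached 500 CPM were Sham_Veh3 and 4, Sham_SHU3 and 4, VX_Veh4 and VX_SHU4. Leaving them out was also a choice made after the data were seen. Without them 0 of the 10 genes passed (0% of all genes), and all 10 differences were positive (median 0.63). The ciliated marker sum was lower in most Sham_SHU than Sham_Veh libraries, and its part in these differences was not tested on its own. With the epididymis, testis and ciliated sums together as covariates 4 of 10 differences stayed positive and the median was −0.03. In that fit 0 of the 10 passed (0% of all genes). The share of all genes that were positive was counted in the main edgeR fit only.

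**Figure D2:**
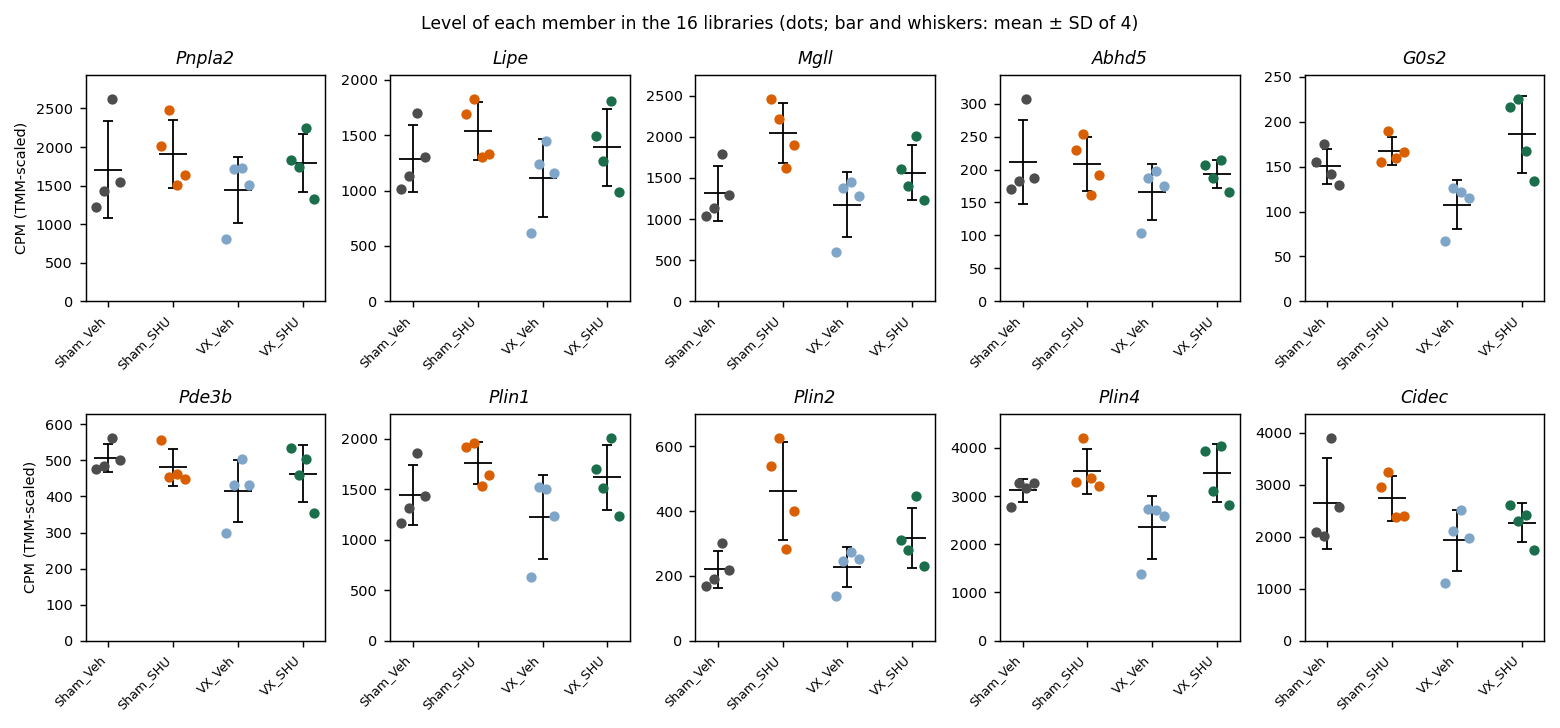
Level of each gene in CPM (linear axis from 0) in the 16 libraries, 1 dot per library, with the mean and SD of each group of 4. The group mean is highest in Sham_SHU for Pnpla2, Lipe, Mgll, Plin1, Plin2, Plin4 and Cidec. It is highest in Sham_Veh for Abhd5 and Pde3b and in VX_SHU for G0s2. VX_Veh1 is the lowest dot of every gene.

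Plin2 was also set against Plin1, the other main droplet coat, within each library. The log2 ratio of their CPM was −2.78, −2.78, −2.63 and −2.72 in Sham_Veh1 to 4 and −1.83, −1.65, −2.44 and −2.03 in Sham_SHU1 to 4. Those groups did not overlap: the highest Sham_Veh library lay below the lowest Sham_SHU library. In VX_Veh the log2 ratio averaged −2.40 ± 0.192 and in VX_SHU −2.37 ± 0.138 (SD, n = 4). Those 2 groups overlapped, and their means lay between the means of the sham groups. Every VX_SHU library (−2.456 to −2.163) also lay above the highest Sham_Veh library (−2.627). The VX_Veh libraries ran from −2.634 to −2.195, and only VX_Veh2 did not lie above that Sham_Veh library. These ratios are described, not tested.

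After sDVX, the second comparison, G0s2 stood furthest apart. It was at 67.32, 126.2, 121.3 and 115.2 CPM in VX_Veh1 to 4 and at 216.3, 225.4, 167.3 and 134 CPM in VX_SHU1 to 4. Every VX_SHU library lay above every VX_Veh library. The means were 107.5 ± 27.2 and 185.8 ± 42.9 CPM (SD, n = 4). The log2 difference of 0.79 ± 0.195 (SE) ranked 40 by p among 16682 genes and did not pass (adjusted p = 0.427, edgeR). The level in the sham groups lay between, at 150.5 ± 19.6 CPM in Sham_Veh and 167.5 ± 15.2 in Sham_SHU.

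Plin4, the most abundant of the 10 by counts, was also separate between VX_Veh and VX_SHU. It was at 1374, 2729, 2705 and 2587 CPM in VX_Veh1 to 4 and at 3928, 3109, 4034 and 2809 CPM in VX_SHU1 to 4. The lowest VX_SHU library lay just above the highest VX_Veh library, and Plin4 in VX_Veh1 was far below its 3 fellow libraries. The log2 difference was 0.56 ± 0.197 (SE; edgeR adjusted p = 0.427), and 0.39 without VX_Veh1. That of G0s2 without VX_Veh1 was 0.63.

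The remaining 8 genes overlapped between VX_Veh and VX_SHU, with log2 differences from 0.16 (Pde3b) to 0.48 (Plin2, adjusted p = 0.48 by edgeR). Pnpla2 averaged 1441 ± 431 CPM in VX_Veh and 1787 ± 376 in VX_SHU, Lipe 1114 ± 353 and 1390 ± 346, and Cidec 1930 ± 586 and 2270 ± 371 (SD, n = 4). For these 3 genes the difference was smaller than the SD within either group.

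Of the 10 genes 0 passed here, where 0.00599% of all genes did, and 10 of 10 differences were positive against 46.9% of all genes. The median was 0.36, beside −0.02 over all genes. At an unadjusted p under 0.05, 2 were higher (G0s2 and Plin4; 5.48% of all genes) and 0 lower (6.16%). The groups of those 2 did not overlap, higher with SHU9119 (2.93% of all genes), and 0 genes were separate in the lower direction (2.03%). DESeq2 and limma-voom with sample weights called G0s2 (adjusted p = 0.0246 and 0.0453), among 0.324% and 0.12% of genes. The median without the 6 libraries was 0.52. With the adipocyte sum as a covariate it was 0.10 and 7 of 10 were positive, and with the 3 other marker sums it was 0.00 with 5 positive, while G0s2 stayed positive in all 25 other fits (0.63 to 0.98). Without VX_Veh1 alone the edgeR difference was 0.036 for Pde3b, 0.056 for Cidec, 0.06 for Abhd5, 0.125 for Pnpla2 and 0.13 for Lipe. No difference changed sign on that loss.

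sDVX under vehicle was the third comparison, and G0s2 and Plin4 again were the genes whose groups did not overlap, now lower. G0s2 was at 155, 175.4, 141.8 and 129.6 CPM in Sham_Veh1 to 4, all above its highest VX_Veh library (126.2). The log2 difference was −0.49 ± 0.194 (SE; edgeR adjusted p = 0.608). Plin4 was at 2763, 3268, 3168 and 3275 CPM in Sham_Veh1 to 4, and the log2 difference was −0.41 ± 0.197 (adjusted p = 0.608, edgeR).

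Both of these comparisons use the VX_Veh libraries, so low values there enter each of them. Without VX_Veh1 the difference of G0s2 under vehicle was −0.29 and that of Plin4 −0.20. The other genes had log2 differences from −0.45 (Cidec) to 0.05 (Plin2), and 6 of them turned positive with limma-voom with sample weights: Pnpla2 (0.23), Lipe (0.19), Mgll (0.25), Plin1 (0.15), Abhd5 (0.013) and Cidec (0.009). Of the 10 genes 0 passed by edgeR (0% of all genes), 1 was lower at an unadjusted p under 0.05 (G0s2; 6.36%) and 0 higher (1.64%). The 2 non-overlapping genes compare with 2.16% of all genes in that direction, and 0 were separate and higher (0.935%). Of the 10 differences 1 was positive (51.5% of all genes). The median was −0.26, beside 0.01 over all genes. With limma-voom 7 of 10 were positive and the median was 0.08, with the adipocyte sum as a covariate 5 were (−0.02), and without the 6 libraries 4 were (−0.05).

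Under SHU9119, the fourth comparison, sDVX and sham libraries overlapped for all 10 genes (3.2% of all genes were separate and higher, 2.44% separate and lower). Plin2 had the largest log2 difference (−0.54 ± 0.286; 317.4 ± 92.8 CPM in VX_SHU against 461.2 ± 152 in Sham_SHU; edgeR adjusted p = 0.483), followed by Mgll (−0.39, adjusted p = 0.57 by edgeR). G0s2 had the 1 positive difference (0.15; 49.1% of all genes were positive), and the median was −0.12, beside −0.01 over all genes. Of the 10 genes 0 passed (0% of all genes), and 0 had an unadjusted p under 0.05 (5.11% of all genes were higher and 5.54% lower at that level).

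**Figure D3:**
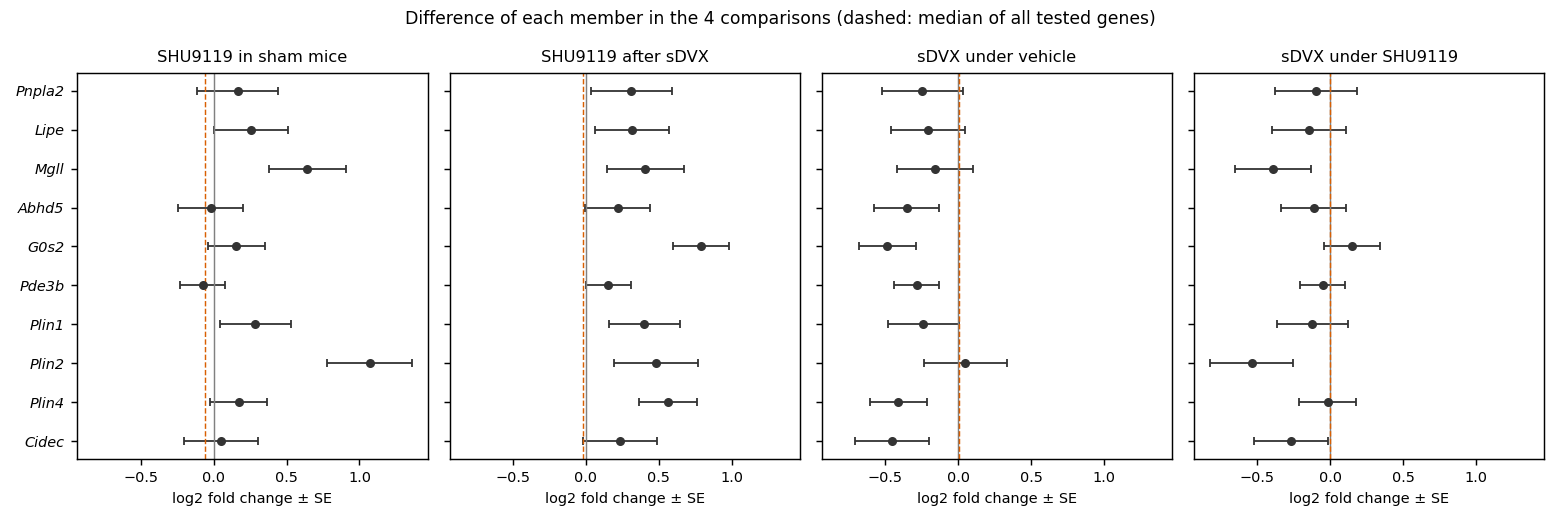
Log2 fold change ± SE (x axis) of each gene (y axis) in the 4 comparisons of single groups, from the edgeR fit, with a dashed line at the median of all tested genes. Plin2 has the largest difference with SHU9119 in sham mice (1.07), G0s2 the largest after sDVX (0.79), and most sDVX differences lie below 0; none passed the test.

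Whether the response to SHU9119 differed between surgeries was tested as an interaction. G0s2 had a difference of responses of 0.63 ± 0.275 on the log2 scale (adjusted p = 0.999 by edgeR), with a response of 0.79 after sDVX and 0.16 after sham surgery. Plin2 pointed the other way, at −0.59 ± 0.404 (edgeR adjusted p = 0.999), with 0.48 after sDVX and 1.07 after sham surgery. Plin4 gave 0.39 ± 0.278, and the other 7 genes −0.24 (Mgll) to 0.24 (Abhd5). Of the 10 genes 0 passed by edgeR (0% of all genes). At an unadjusted p under 0.05, 1 was higher (G0s2, with 3.33% of all genes) and 0 lower (1.43%). DESeq2 and limma-voom called 0 of 10, where they called 0.048% and 0.0779% of all genes. In the edgeR fit 8 differences were positive (48.1% of all genes) with a median of 0.17. That direction turned in 3 other fits, with 3 of 10 positive in each: the median was −0.24 with limma-voom, −0.18 without the 6 libraries and −0.18 with the adipocyte sum. A difference in response between surgeries was not detected for any of the 10.

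Averaged over both surgeries, SHU9119 libraries were higher for all 10 genes, against 44.6% of all genes. The log2 differences were 0.78 ± 0.203 for Plin2 (edgeR adjusted p = 0.0611), 0.53 ± 0.185 for Mgll (0.0984), 0.47 ± 0.137 for G0s2 (0.0718) and 0.37 ± 0.139 for Plin4 (0.112). These 4 had an unadjusted p under 0.05 (12.8% of all genes were higher at that level). Plin1 (0.34), Lipe (0.29), Pnpla2 (0.24), Cidec (0.14), Abhd5 (0.10) and Pde3b (0.04) followed. With edgeR 0 of 10 passed, where 1.87% of all genes did, while DESeq2 and limma-voom with sample weights each called Plin2, Mgll, G0s2 and Plin4, among 16.7% and 23.4% of genes. Without the 6 libraries high in epididymis or testis markers edgeR called Plin2 and Mgll (adjusted p = 0.0326 and 0.0472), among 24.4%. Plin2 also passed without Sham_SHU3 (0.87, edgeR adjusted p = 0.0233), where 9.58% of all genes did. With the adipocyte sum as a covariate edgeR called Plin2, Mgll and Plin1, among 7.48%, and 9 of 10 were positive. With the epididymis, testis and ciliated sums as covariates 0 of 10 passed (0% of all genes) and 5 were positive. The median was 0.02 in place of 0.32.

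Averaged over both infusions, sDVX libraries were lower for all 10 genes (50.3% of all genes were higher), with a median of −0.20 and log2 differences from −0.17 to −0.36. Cidec had the largest (−0.36 ± 0.178, edgeR adjusted p = 0.336), and 0 of 10 passed (0% of all genes), with 0 at an unadjusted p under 0.05 (5.16% of all genes were higher and 10.8% lower). With limma-voom the median was −0.06 and 3 of 10 were positive (Pnpla2 0.085, Lipe 0.03 and Plin1 0.013), and with the adipocyte sum as a covariate the median was −0.10. Without VX_Veh1 the edgeR difference was −0.053 for Plin1, −0.057 for Lipe, −0.062 for G0s2, −0.083 for Pde3b and −0.1 for Plin4. That of Pnpla2 was −0.027 without Sham_Veh3. No difference changed sign on the loss of any 1 library.

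The 10 genes shared much of their variation between libraries, whatever the group. The counts of positive differences given above are therefore not counts of separate observations. In VX_Veh1 all 10 were below their own mean over the 16 libraries, by 1.04 on average on the log2 CPM scale, and all 10 were also below it in VX_Veh4 and VX_SHU4 (by 0.19 and 0.27). All 10 were above their mean in Sham_SHU1, VX_SHU1 and VX_SHU3 (by 0.38, 0.23 and 0.35). Sham_Veh3 had 9 above, with G0s2 the exception, and Sham_SHU2 had 9 above, with Pde3b the exception. Cidec, Abhd5, Pnpla2 and Pde3b were highest of all in Sham_Veh3, at 3897, 307.2, 2624 and 561.8 CPM. Sham_Veh3 was the library with the highest adipocyte marker sum (37090 CPM).

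**Figure D4:**
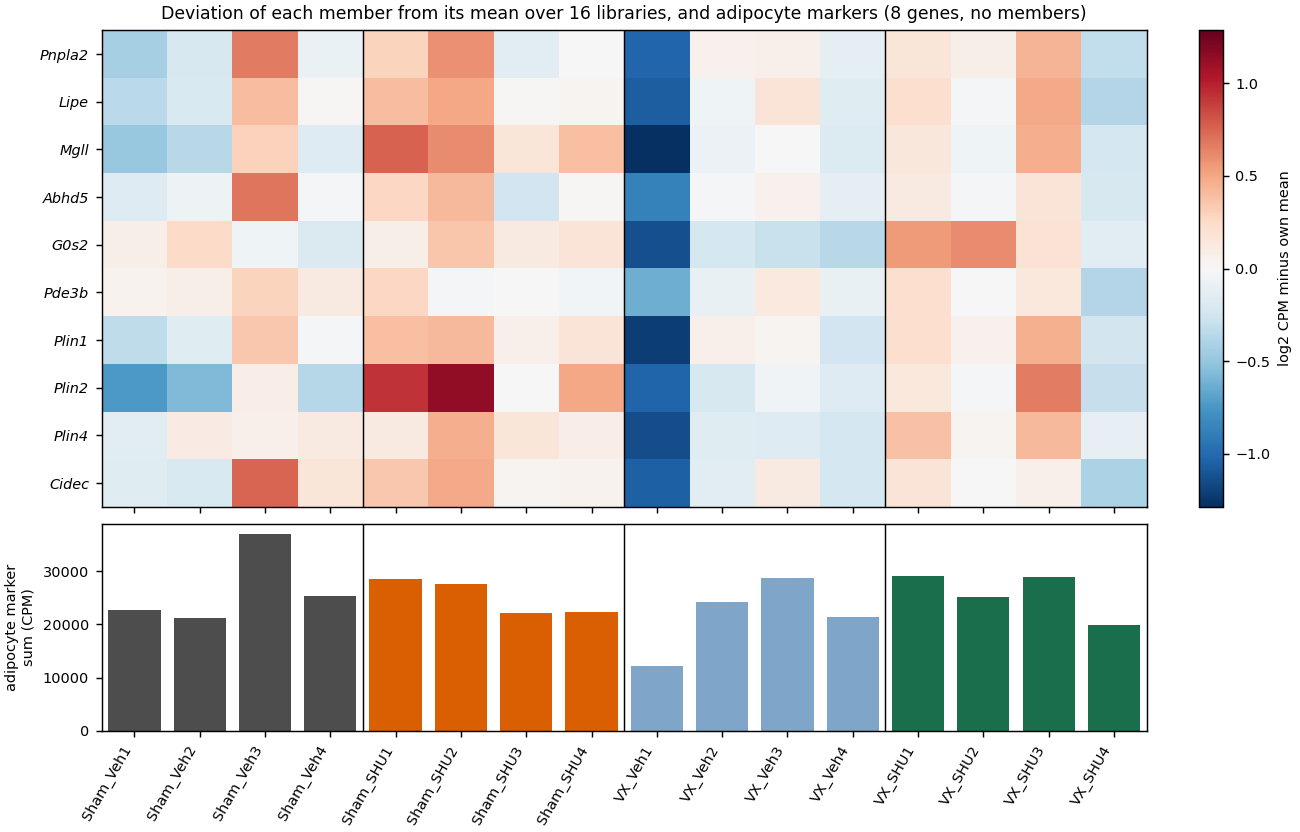
Top, log2 CPM of each gene minus its own mean over 16 libraries, as colour (red above, blue below); bottom, the summed level of 8 adipocyte markers in CPM, as bars from 0. VX_Veh1 is lowest for all 10 genes and has the lowest adipocyte sum, 12200 CPM.

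The closest pair was Lipe and Plin1, with Pearson r = 0.976 and Spearman rho = 0.932 over 16 libraries, followed by Pnpla2 with Lipe (0.964 and 0.918) and Mgll with Plin1 (0.956 and 0.95). G0s2 was the gene least like the rest by its median r of 0.633 with the other 9, against 0.711 to 0.907 for the other genes. Without VX_Veh1 and Sham_SHU2, the libraries farthest from the median of the mean deviation, the median r of G0s2 was 0.182 and that of Lipe 0.797. G0s2 was most like Plin4 (r = 0.866, and 0.654 without those 2 libraries), and Plin2 was most like Mgll (0.937, and 0.973 without them). With the adipocyte marker sum, r was 0.941 for Cidec, 0.939 for Abhd5 and 0.919 for Pnpla2, and 0.624 for Plin2 and 0.613 for G0s2. The libraries share group and depot makeup, so these correlations are descriptions.

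Likeness of pattern was measured against 11675 genes averaging 5 CPM or more. The closest in pattern to Plin2 was Mtln, a mitochondrial micropeptide gene (r = 0.989, n = 16 libraries), and to Mgll Dhdh (0.985). Pnpla2 was closest to Eif4ebp1, an inhibitor of cap-dependent translation (0.987), Lipe to Phldb1 (0.983) and Plin1 to Plaat3, a phospholipase of fat cells (0.982). For G0s2 the highest was Crtap, part of a complex that modifies collagen prolines (0.918), followed by Selenon (0.915). Cidec had Rras (0.974) followed by Bckdhb (0.955) and Adipoq, the hormone adiponectin (0.954). Pde3b was closest to Aqp7, the glycerol channel of fat cells (0.946), Plin4 to Fsd2 (0.967) and Abhd5 to Rbms2 (0.957).

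Set against the lipase it controls, each regulator had its own pattern. The log2 ratio of G0s2 to Pnpla2 was −3.83 to −3.59 in the VX_Veh libraries, and −2.95, −3.09, −3.31 and −3.75 in VX_SHU2, 1, 4 and 3, so that 3 of 4 VX_SHU libraries lay above all of VX_Veh. In Sham_Veh it spread most, from −4.21 in Sham_Veh3 to −2.98 in Sham_Veh1. The ratio of the activator Abhd5 to Pnpla2 moved within a narrower range, with means of −2.99 ± 0.108 in Sham_Veh, −3.19 ± 0.088 in Sham_SHU, −3.10 ± 0.098 in VX_Veh and −3.19 ± 0.161 in VX_SHU (SD, n = 4). Every Sham_SHU library was below every Sham_Veh library in that ratio (highest −3.096, lowest −3.094), by a margin far under the SD. Lipe to Pnpla2 averaged −0.30 to −0.38 in all 4 groups, within the spread of each.

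**Figure D5:**
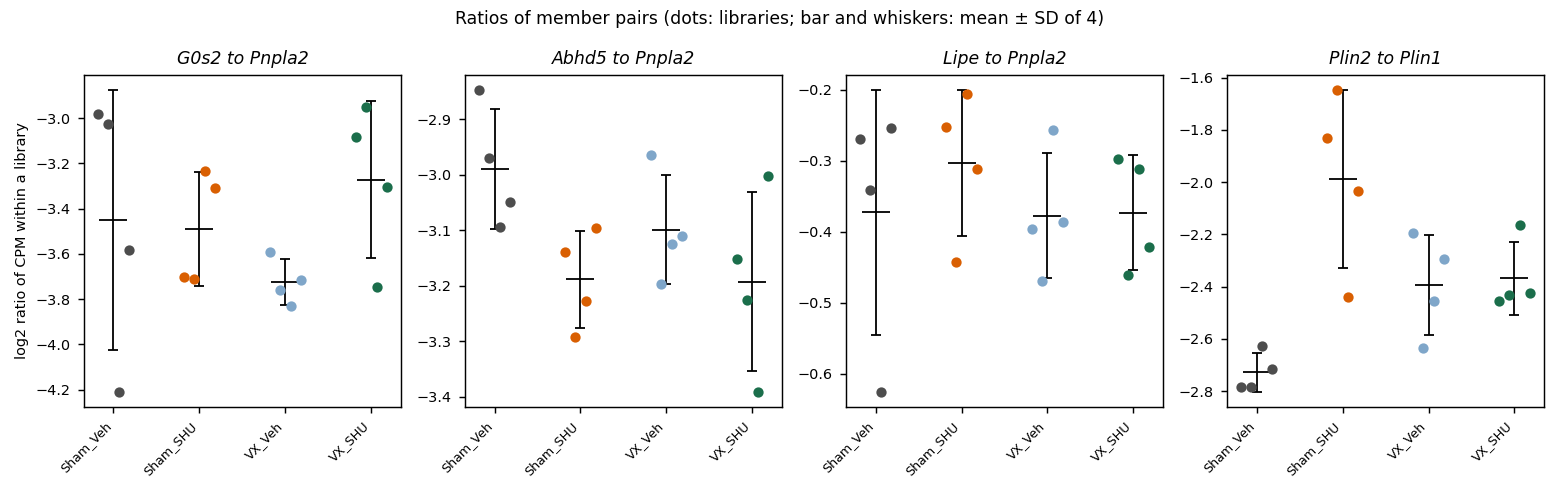
Log2 ratio of CPM of 2 genes within each library, 1 dot per library, with the mean and SD of each group of 4. The ratio of Plin2 to Plin1 is separate between Sham_Veh and Sham_SHU, and also between Sham_Veh and VX_SHU. Abhd5 to Pnpla2 is separate between Sham_Veh and Sham_SHU by a very small margin, and G0s2 to Pnpla2 spreads most in Sham_Veh.

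A wider list of 52 genes covers the rest of the system: 14 other droplet proteins, 8 other lipases and partners, 4 genes of glycerol and fatty acid carriage, 15 of the cyclic AMP arm and 11 antilipolytic receptors and insulin signalling genes. All 52 passed the low-count filter, and Fabp4 is also an adipocyte marker here. By edgeR 0 of 52 passed in each of the 7 comparisons, while the SHU9119 difference averaged over surgeries gave 20 higher and 3 lower at an unadjusted p under 0.05 (12.8% and 15.7% of all genes). Of those, the cyclic AMP arm gave 8 higher and 1 lower of 15, and the antilipolytic and insulin genes 5 and 0 of 11. DESeq2 called 16 of 52 there, where it called 16.7% of all genes, and limma-voom with sample weights 22, where it called 23.4%.

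Fabp5, a fatty acid binding protein, was the member of the wider list with the smallest p under SHU9119 in sham mice. It was at 112.8, 107.6, 174.8 and 109.4 CPM in Sham_Veh1 to 4 and at 439.1, 519.5, 157.7 and 339.4 CPM in Sham_SHU1 to 4. As with Plin2, Sham_SHU3 lay inside the Sham_Veh range, and the log2 difference was 1.53 ± 0.372 (SE; edgeR adjusted p = 0.0767). Plin3, a perilipin found in many tissues, was at 69.59 to 75.02 CPM in Sham_Veh and 75.44 to 100.2 in Sham_SHU, without overlap (0.29 ± 0.0711, edgeR adjusted p = 0.0804). In that comparison 8 of the 52 were separate and higher and 0 separate and lower (5.6% and 4.82% of all genes). Averaged over surgeries, Fabp5 was higher by 1.00 ± 0.26 and Hsd17b11, a droplet-bound dehydrogenase, differed by −0.79 ± 0.21 (edgeR adjusted p = 0.0611 and 0.0626).

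After sDVX the smallest p of the list belonged to Cav1, the caveolin of the fat-cell surface (0.44 ± 0.15), and Pnpla3, a relative of Pnpla2 (0.67 ± 0.234), both with edgeR adjusted p = 0.427. Under vehicle sDVX libraries were lower for Hilpda, a droplet protein that also inhibits Pnpla2 (−0.47 ± 0.15), and for Cav1 (−0.42 ± 0.15), and neither passed (edgeR adjusted p = 0.608). Cav1 was at 1820, 2634, 2527 and 2420 CPM in VX_Veh1 to 4, all below the lowest Sham_Veh library (3078). Hilpda was at 4.743 to 6.843 CPM in VX_Veh and 7.021 to 10.38 in Sham_Veh, also without overlap. In that comparison 3 of the 52 were separate and lower and 1 separate and higher (2.16% and 0.935% of all genes). The genes named were picked for their smallest p, which favours separate groups. Hilpda and Plin3 had the smallest p of the list in the interaction (0.51 and −0.26, edgeR adjusted p = 0.999). Under SHU9119, Npy1r, a receptor that lowers cyclic AMP, was higher in sDVX libraries by 0.65 ± 0.223 and Fabp5 differed by −0.87 ± 0.366 (edgeR adjusted p = 0.445 and 0.466). Averaged over infusions Cav1 (−0.32 ± 0.106) and Gnai1, an inhibitory G protein subunit (−0.38 ± 0.13), led the list with edgeR adjusted p = 0.224 and 0.225.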

How the data were processed

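The deposited table holds whole-number read counts per gene for 16 libraries, as the authors made it, under NCBI gene numbers. The submitters' processing notes list bcl2fastq, TopHat, edgeR and mm10 without versions; what counted the reads, with which annotation and strand setting, is not given in the sources used here. Symbols and coordinates came from RefSeq on GRCm38.p6 (24374 of 24454 numbers matched; the other 80 held 0.557% to 1.24% of counts), exon lengths and overlaps from GENCODE M21.

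Counts were fitted in R 4.3.3 with edgeR 4.0.16: filterByExpr by group (16682 genes kept), TMM scaling, a mean per group over all 16 libraries, robust quasi-likelihood F tests, and Benjamini-Hochberg adjustment over all genes at 0.05. An SE is the log2 difference divided by the square root of its F value, and log2 CPM carried a prior count of 2. The pipeline was tested on simulated data. No 2 replicates were copies (chi-square per degree of freedom 11.8 to 204). Alternatives were DESeq2 size factors, no filter, DESeq2 1.42.0, limma-voom (limma 3.58.1) with sample weights, a block for replicate number, fits on just the 2 groups at hand, and the loss of each library in turn. Another 3, which drop 6 libraries or use marker sums (3 together, or the adipocyte sum) as covariates, were chosen after seeing the data.

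Members and lists were chosen with earlier results of these data known. The text names all 10 members, the 2 genes of the wider list with the smallest p in each comparison and, for each member, from up to 3 genes of highest Pearson r over log2 CPM. A wider set of motifs was also looked at in the upstream windows with no rule set for it and is not reported. Protein sequences were not used here.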

Additional observations from a re-analysis of the deposited data

Results flagged for a closer look

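Within groups of 4, the gap of the highest or lowest library to its nearest neighbour was compared with the group's range for the 10 genes and the 4 ratios, 56 groups in all, and 5 exceeded Dixon's 95% critical value for groups of that size. Chance alone gives about 1 in 20. Abhd5 was at 307.2 CPM in Sham_Veh3, against 170.1 to 187.5 in the other Sham_Veh libraries. Pde3b was at 556.5 CPM in Sham_SHU1, against 449.4 to 463.6. Plin4 was at 4200 CPM in Sham_SHU2, against 3205 to 3368, and at 1374 CPM in VX_Veh1, against 2587 to 2729. The log2 ratio of Plin2 to Plin1 was −2.163 in VX_SHU3, against −2.456 to −2.423. Sham_Veh3 had the highest and VX_Veh1 the lowest adipocyte marker sum, and the part of those sums in these values was not tested.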

How the results depend on the processing

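The edgeR fit called 0 of the 10 genes in all 7 comparisons, and so did the fits with DESeq2 size factors, with no filter and with the 3 marker sums, and the fits on only the groups compared in the 4 comparisons they allow. Same-numbered replicates were not taken as paired: correlations of their deviations from the group means were −0.689 to 0.676, and not every library was closest to its own number. With the replicate block 0 genes of all genes were called in all 7 comparisons, and 0 of the 10. With DESeq2, the calls were, of the 10 genes, 1 for SHU9119 in sham mice, 1 for SHU9119 after sDVX and 4 for averaged SHU9119, and of all genes, 1205 for SHU9119 in sham mice, 54 for SHU9119 after sDVX, 11 for sDVX under vehicle, 93 for sDVX under SHU9119, 8 for the interaction, 2792 for averaged SHU9119 and 409 for averaged sDVX, and of the wider list, 7 for SHU9119 in sham mice and 16 for averaged SHU9119. With limma-voom, the calls were, of the 10 genes, 2 for SHU9119 in sham mice, 1 for SHU9119 after sDVX and 4 for averaged SHU9119, and of all genes, 3874 for SHU9119 in sham mice, 20 for SHU9119 after sDVX, 4 for sDVX under vehicle, 779 for sDVX under SHU9119, 13 for the interaction, 3899 for averaged SHU9119 and 112 for averaged sDVX, and of the wider list, 20 for SHU9119 in sham mice, 1 for sDVX under SHU9119 and 22 for averaged SHU9119. With the replicate block, the calls were, of all genes, 0 for SHU9119 in sham mice, 0 for SHU9119 after sDVX and 0 for averaged SHU9119. With only the groups compared, the calls were, of all genes, 1 for SHU9119 in sham mice and 0 for SHU9119 after sDVX. Without the 6 libraries, the calls were, of all genes, 0 for SHU9119 in sham mice, 0 for SHU9119 after sDVX and 4062 for averaged SHU9119, and of the 10 genes, 2 for averaged SHU9119, and of the wider list, 17 for averaged SHU9119. With the 3 marker sums, the calls were, of all genes, 0 for SHU9119 in sham mice, 0 for SHU9119 after sDVX and 0 for averaged SHU9119. With the adipocyte sum, the calls were, of the 10 genes, 4 for SHU9119 in sham mice and 3 for averaged SHU9119, and of all genes, 1830 for SHU9119 in sham mice, 0 for SHU9119 after sDVX, 1 for sDVX under SHU9119 and 1247 for averaged SHU9119, and of the wider list, 17 for SHU9119 in sham mice and 11 for averaged SHU9119. With DESeq2 size factors, the calls were, of all genes, 0 for SHU9119 after sDVX. Without the filter, the calls were, of all genes, 0 for SHU9119 after sDVX and 167 for averaged SHU9119.

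Of 1720 values of single members under 25 settings, 93 changed sign and 25 newly passed, and the cause was not tested. Without the filter, log2 differences of the other sign were found in SHU9119 in sham mice for Abhd5 0.002, and in sDVX under SHU9119 for Plin4 0.004. With limma-voom, log2 differences of the other sign were found in SHU9119 in sham mice for Abhd5 0.188 and Pde3b 0.002, and in sDVX under vehicle for Pnpla2 0.232, Lipe 0.187, Mgll 0.249, Abhd5 0.013, Plin1 0.153 and Cidec 0.009, and in sDVX under SHU9119 for Plin4 0.061, and in the interaction for Pnpla2 −0.295, Lipe −0.315, Abhd5 −0.108, Plin1 −0.28 and Cidec −0.193, and in averaged sDVX for Pnpla2 0.085, Lipe 0.03 and Plin1 0.013. With the replicate block, log2 differences of the other sign were found in SHU9119 in sham mice for Abhd5 0.016. Without the 6 libraries, log2 differences of the other sign were found in SHU9119 in sham mice for Abhd5 0.462 and Pde3b 0.084, and in sDVX under vehicle for Pnpla2 0.106, Lipe 0.047 and Mgll 0.086, and in sDVX under SHU9119 for Pde3b 0.01 and Plin4 0.009, and in the interaction for Pnpla2 −0.291, Lipe −0.23, Abhd5 −0.124, Plin1 −0.114 and Cidec −0.225. With the 3 marker sums, log2 differences of the other sign were found in SHU9119 in sham mice for Pnpla2 −0.112, Lipe −0.034, Plin4 −0.015 and Cidec −0.18, and in SHU9119 after sDVX for Pnpla2 −0.067, Lipe −0.034, Abhd5 −0.096, Pde3b −0.007 and Cidec −0.064, and in averaged SHU9119 for Pnpla2 −0.09, Lipe −0.034, Abhd5 −0.174, Pde3b −0.101 and Cidec −0.122. With the adipocyte sum, log2 differences of the other sign were found in SHU9119 in sham mice for Abhd5 0.048, and in SHU9119 after sDVX for Abhd5 −0.01, Pde3b −0.004 and Cidec −0.031, and in sDVX under vehicle for Pnpla2 0.115, Lipe 0.087, Mgll 0.142 and Plin1 0.026, and in the interaction for Pnpla2 −0.24, Lipe −0.271, Abhd5 −0.058, Plin1 −0.183 and Cidec −0.174, and in averaged SHU9119 for Pde3b −0.025.

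Leaving out 1 library at a time, calls in SHU9119 in sham mice ranged of the 10 genes from 0 to 1, of all genes from 0 to 982 and of the wider list from 0 to 4. In SHU9119 after sDVX they ranged of all genes from 0 to 1. In sDVX under vehicle they ranged of all genes from 0 to 1. In sDVX under SHU9119 they ranged of all genes from 0 to 3. In the interaction they ranged of all genes from 0 to 1. In averaged SHU9119 they ranged of the 10 genes from 0 to 1, of all genes from 3 to 1612 and of the wider list from 0 to 8. In SHU9119 in sham mice the log2 difference ranged for Abhd5 from −0.11 to 0.216 and Cidec from −0.039 to 0.302. In sDVX under vehicle the log2 difference ranged for Pnpla2 from −0.366 to 0.042, Lipe from −0.357 to 0.016, Mgll from −0.272 to 0.087, Plin1 from −0.361 to 0.001 and Plin2 from −0.052 to 0.25. In sDVX under SHU9119 the log2 difference ranged for Pnpla2 from −0.226 to 0.052, Pde3b from −0.127 to 0.057 and Plin4 from −0.098 to 0.078. In the interaction the log2 difference ranged for Pnpla2 from −0.14 to 0.299, Lipe from −0.145 to 0.212, Plin1 from −0.108 to 0.239 and Cidec from −0.067 to 0.334. In averaged SHU9119 the log2 difference ranged for Pde3b from −0.008 to 0.096. The library whose loss gave the most calls was Sham_SHU3 in both SHU9119 comparisons that rested on it.

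With 4 libraries a group and a wide spread between them, no difference of the 10 genes passed in the main edgeR fit after adjustment over all genes. The unadjusted p by edgeR quasi-likelihood F test was 0.00244 for Plin2 in sham mice and 0.00125 for G0s2 after sDVX. Counting error was small beside the spread between libraries, since each of the 10 genes had at least 62603 counts over the 16 libraries. The settings that leave out 6 libraries or add marker sums were chosen after the data were seen. Leaving out the 6 libraries leaves 2 or 3 libraries in each group.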
